A study of Homo sapiens with 2 samples.

Results

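The nuclear-encoded subunits of the mitochondrial respiratory chain were followed in 2 RNA-seq libraries, 1 from an isogenic SETD2 knockout line and 1 from its wild-type parent. Members were the rows whose gene symbol starts with NDUFA, NDUFB, NDUFC, NDUFS, NDUFV, UQCR, COX4I, COX5, COX6, COX7 or COX8, together with SDHA, SDHB, SDHC, SDHD and CYC1. This gave 76 of 23375 rows, and 75 remained after the pseudogene UQCRBP1 was left out. Of these, 61 encode the structural subunits usually present in complexes I to IV, and 8 encode tissue or hypoxia isoforms or a retrocopy. The remaining rows were 4 assembly factors of complex I (NDUFAF1 to NDUFAF4), which share the NDUFA prefix, the supercomplex protein COX7A2L and the read-through transcript NDUFC2-KCTD14. The 37 structural subunits of complex I, 4 of complex II, 9 of complex III and 11 of complex IV were described separately.

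Both lines derive from 786-O, an established line of clear cell renal carcinoma. It is known to lack working VHL, so both groups lack this brake on hypoxia-inducible factors. In the knockout line SETD2 was disrupted by a zinc finger nuclease (an engineered DNA-cutting enzyme), and the wild-type line carries SETD2 unedited. Both were grown in serum-supplemented medium without further treatment, and the labels do not say whether the knockout line is 1 clone. SETD2 trimethylates lysine 36 of histone H3 along transcribed genes, and the comparison asks which transcripts differ when it is disrupted. With 1 library per line there was no replicate error and no test. Each difference compares these 2 libraries rather than the conditions, and intervals are exact 95% counting intervals that cover counting error only. In bulk libraries, fewer cells of a type and less RNA per cell cannot be told apart.

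The respiratory chain passes electrons from NADH and succinate to oxygen and pumps protons across the inner mitochondrial membrane. Complex I oxidises NADH through a peripheral arm in the matrix and pumps protons through a membrane arm. Complex II oxidises succinate, complex III passes electrons from coenzyme Q to cytochrome c, and complex IV reduces oxygen. Complexes I, III and IV each combine subunits encoded in mitochondrial DNA with nuclear-encoded ones, whereas complex II is wholly nuclear-encoded. Clear cell renal carcinoma is known for low respiratory chain activity. The tables held 0 rows of mitochondrial DNA, so the subunits encoded there were not analysed here.

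The knockout library held 50670012 fragments in genes and the wild-type library 62304084. SETD2 itself had 2.39 RPKM in the knockout library and 6.79 RPKM in the wild-type library, a ratio of 0.334 (interval 0.314 to 0.354). RPKM, the authors' count scaled for gene length and library size, is used below for levels. Ratios of knockout to wild type are of fragment counts after TMM scaling (trimmed mean of M values). All 7 renal epithelial line markers, among them PAX8, KRT8 and VIM, were at 1 RPKM or more in both libraries. VIM, PAX8, NNMT, KRT18, PAX2 and KRT8 had ratios of 0.651, 0.669, 0.731, 0.770, 0.806 and 0.836, with intervals wholly below 1. CDH2 had a ratio of 1.02. Leukocyte markers (CD3E at 0 in both libraries) summed to 0.400 RPKM in the knockout and 0.103 RPKM in the wild-type library. CD14 made up most of the knockout sum, with 38 fragments there and 7 in the wild-type library, a ratio of 6.33 (2.79 to 16.8). Endothelial markers summed to 0.0794 and 0.0674 RPKM in the knockout and wild-type libraries, with PECAM1 at 0 in the knockout library. TEK had 16 fragments in the knockout and 4 in the wild-type library, a ratio of 4.67 (1.51 to 19.2). KDR had 8 and 22, a ratio of 0.424 (0.163 to 0.989). No leukocyte or endothelial marker reached 1 RPKM in either library. Of 5 fibroblast and pericyte markers, COL1A2 and DCN were at 0 in the knockout library, and the sum was 3.26 RPKM there and 2.82 RPKM in the wild-type library. In each library 1 of the 5 was at 1 RPKM or more. COL1A1 had 1.95 RPKM in the knockout and 0.823 RPKM in the wild-type library, a ratio of 2.25 (1.99 to 2.53). LUM had 0.537 and 1.38 RPKM and RGS5 0.774 and 0.570 RPKM in the knockout and wild-type libraries.

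Transcripts of the structural subunits were abundant in both lines. Their median level was 42.8 RPKM in the knockout and 40.7 RPKM in the wild-type library, against medians over all rows of 0.750 RPKM in the knockout and 0.637 RPKM in the wild-type library. In each library 50 of the 61 were among the 10% of rows with the highest RPKM. Together they took 0.482% of knockout fragments (Wilson interval 0.480 to 0.484) and 0.453% of wild-type fragments (0.451 to 0.455). Both are shares of total fragments, without TMM scaling, and these intervals cover counting error only. The direction of the summed level depended on the scaling, as given below. Complex IV subunits had the highest median, 133 RPKM in the knockout and 111 RPKM in the wild-type library. The medians of complexes III, II and I were 47.5, 40.2 and 30.8 RPKM in the knockout library and 44.5, 37.1 and 33.3 RPKM in the wild-type library. RPKM differences within a complex also depend on the deposited gene length, which is long for UQCRB (5223 bases), so they do not measure subunit stoichiometry.

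**Figure D1:**
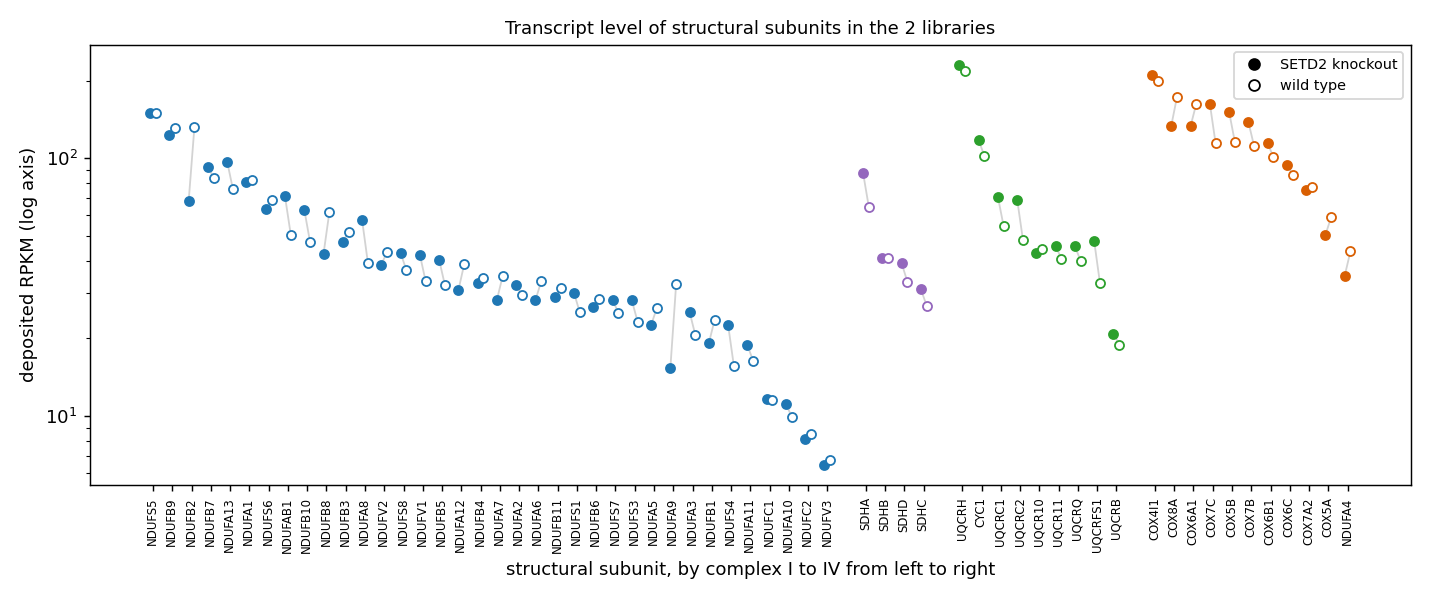
Deposited RPKM (log axis) of 60 of the 61 structural subunits in the SETD2 knockout library (filled) and the wild-type library (open), by complex and sorted by level. UQCRH is highest, at 231 RPKM in the knockout and 218 RPKM in the wild-type library, NDUFV3 is lowest, and NDUFB2 and NDUFA9 show the widest gaps between the libraries.

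As a group, the structural subunits differed little between the libraries. Of 61, 58 had a ratio within 1.5-fold of 1, or 95.1%, against 62.8% of the 16894 genes with at least 10 reads and 80.9% of the 6401 genes at least as abundant as the lowest subunit. Their median log2 ratio was 0.04, beside 0.02 over all genes tested, and the quartiles were -0.19 and 0.20, beside -0.38 and 0.45. The 6401 genes at least as abundant as the lowest subunit had a median of -0.08 and quartiles of -0.37 and 0.17. Of these 6401 genes, 2625 had a log2 ratio above 0 and 3776 below, where 32 and 29 of the subunits did. Within 1.2-fold lay 37 of 61, or 60.7%, against 35.7% of all genes and 49.6% of the genes at least as abundant as the lowest subunit. Counting intervals lay wholly above 1 for 27 subunits and wholly below 1 for 27, where 34.9% of all genes tested lay above and 35.2% below. Genes are called higher or lower below if the full interval is past 1.5-fold in that direction. Of 71 members with at least 10 reads, 0 were higher and 4 lower (5.63%), where 10.4% of all genes tested were higher and 9.17% lower. Of the 6401 genes at least as abundant as the lowest subunit, 4.28% were higher and 10.9% lower, and of the 61 structural subunits 0 were higher and 2 lower (3.28%). The 4 were NDUFA9 and NDUFB2, 2 accessory subunits of complex I, and the isoforms COX7A1 and NDUFA4L2. With the interval beyond 1.2-fold, 7 members were higher and 11 lower, where 19.7% of all genes were higher and 20.0% lower. Beyond 2-fold, 0 members were higher (5.75% of all genes) and 2 lower (3.37% of all genes), NDUFA9 and NDUFA4L2. Their intervals end at 0.473 and 0.496, so NDUFA4L2, with 4 and 27 fragments, passed this limit only narrowly. The summed RPKM of the structural subunits was 3785 in the knockout and 3629 in the wild-type library, a ratio of 1.04. With TMM-scaled fragments per kilobase in place of RPKM this ratio was 0.987, so the direction of the sum depends on the scaling.

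**Figure D2:**
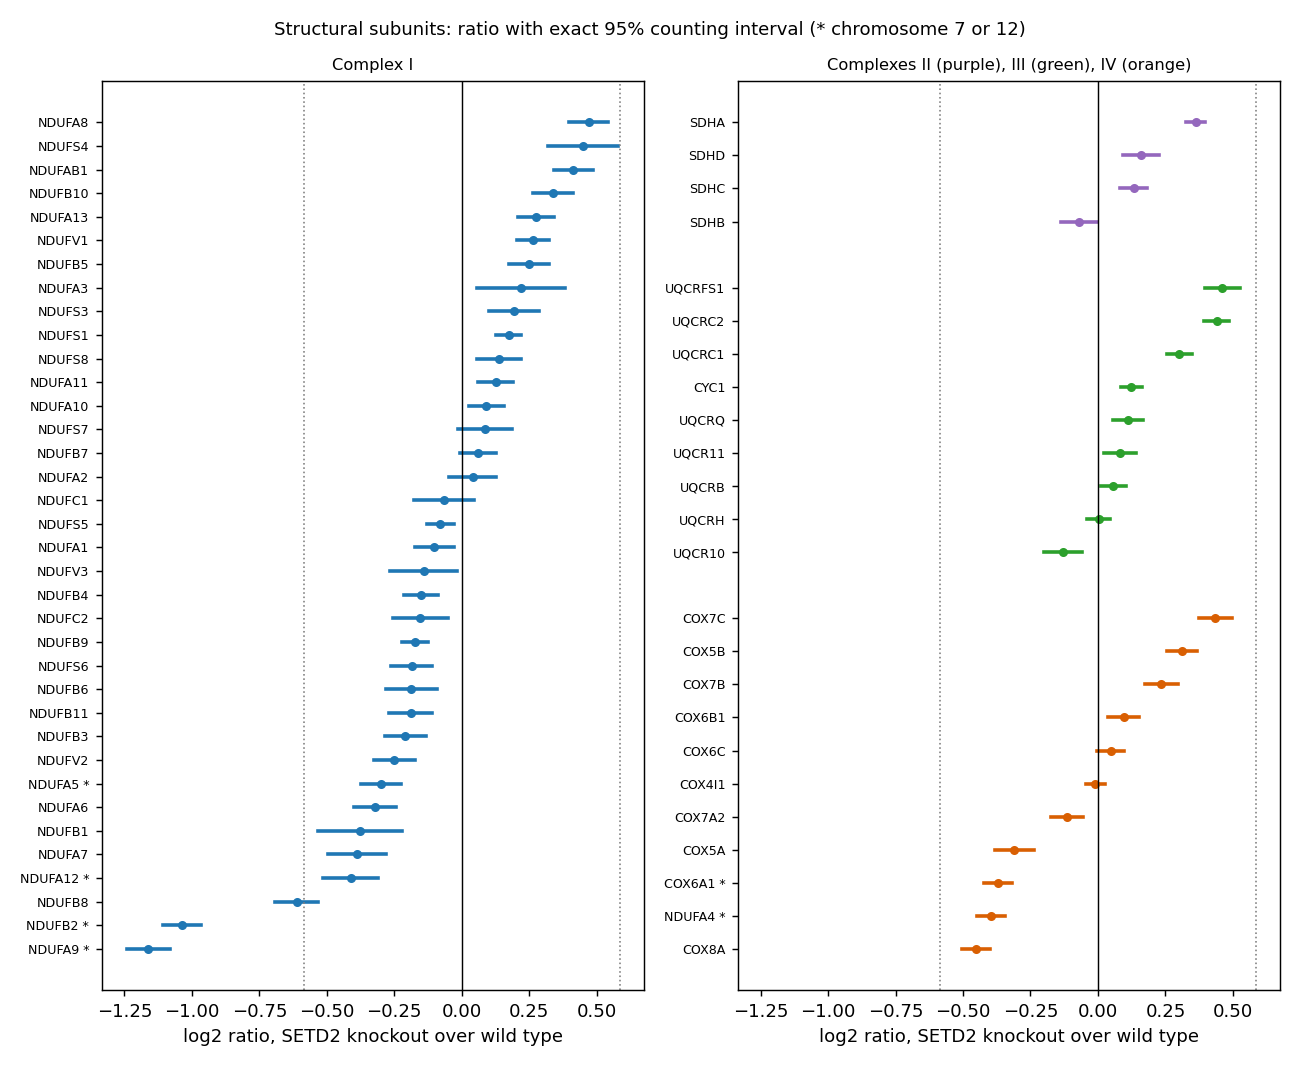
Log2 ratio of SETD2 knockout over wild type for 60 of the 61 structural subunits (points) with its exact 95% counting interval (bars), complex I on the left and complexes II to IV on the right. Dotted lines mark 1.5-fold, asterisks mark genes on chromosome 7 or 12, and only NDUFB2 and NDUFA9 have intervals wholly beyond the line.

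The catalytic core of complex I had ratios near 1. Of its 7 nuclear-encoded core subunits, which hold the flavin and iron-sulfur clusters of the electron path, 0 were counted at 1.5-fold and the median log2 ratio was 0.14. NDUFV1, which binds NADH and the flavin, had 42.2 RPKM in the knockout and 33.3 RPKM in the wild-type library, a ratio of 1.2 (interval 1.15 to 1.25). Its partner NDUFV2 had 38.6 RPKM in the knockout and 43.4 RPKM in the wild-type library, a ratio of 0.841 (0.799 to 0.886). The flavoprotein and its partner therefore had ratios on opposite sides of 1, with intervals that do not overlap. NDUFS1, the largest iron-sulfur subunit of the peripheral arm, had 30.1 RPKM in the knockout and 25.2 RPKM in the wild-type library, a ratio of 1.13. NDUFS3, NDUFS7 and NDUFS8, which lie along the electron path or beside it, had ratios of 1.15, 1.06 and 1.10, and the interval of NDUFS7 (0.990 to 1.14) includes 1. NDUFS3 shares 6 bases with KBTBD4, and NDUFS8 contains MIR4691.

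The 30 accessory subunits of complex I, which surround the core and are needed for its assembly and stability, spread more widely. Their median log2 ratio was -0.15, 11 were above 0 and 19 below, and 2 were counted as lower. The peripheral arm (16 subunits, core included) had a median of -0.16 and the membrane arm (20 subunits) one of -0.09, while NDUFAB1, the mitochondrial acyl carrier protein that binds to both arms, had a ratio of 1.33 (1.27 to 1.40). The highest ratio was that of NDUFA8, a membrane arm subunit on the intermembrane space side (hg19 chromosome 9, 124906338 to 124922098). It had 3381 fragments and 57.6 RPKM in the knockout library, against 2845 fragments and 39.4 RPKM in the wild-type library, a ratio of 1.39 (1.32 to 1.46). NDUFS4, a peripheral arm subunit whose loss causes Leigh syndrome, had 1058 fragments in the knockout and 903 in the wild-type library, a ratio of 1.37 (1.25 to 1.495). NDUFB8, a membrane arm subunit often used as a blotting marker of assembled complex I, had 42.6 RPKM in the knockout and 61.6 RPKM in the wild-type library. Its ratio was 0.655, and its interval (0.620 to 0.691) spans the 1.5-fold limit. The complex I transcripts with the highest mean RPKM, NDUFS5 (150.3 and 150.2 RPKM in the knockout and wild-type libraries) and NDUFB9 (123 and 131 RPKM), had ratios of 0.947 and 0.886, and with RPKM scaling the log2 ratio of NDUFS5 was just above 0. The least abundant, NDUFV3 (6.48 RPKM in the knockout and 6.77 RPKM in the wild-type library) and NDUFC2 (8.12 and 8.55 RPKM), had ratios of 0.907 and 0.899. Leaving out these and NDUFA9 and NDUFB2, the other accessory subunits had ratios between 0.752 (NDUFA12) and 1.26 (NDUFB10), with NDUFA7 at 0.764.

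NDUFA9 and NDUFB2 were the structural subunits counted as lower. NDUFA9 (hg19 chromosome 12, 4758264 to 4796720) sits at the junction of the arms of complex I. It had 1717 fragments and 15.3 RPKM in the knockout library, against 4477 fragments and 32.5 RPKM in the wild-type library, a 2.24-fold lower level (interval 2.11-fold to 2.36-fold). NDUFB2 (hg19 chromosome 7, 140396481 to 140406446), a membrane arm subunit, had 2352 fragments and 68.3 RPKM in the knockout library, against 5626 fragments and 133 RPKM in the wild-type library. Its level was 2.05-fold lower (interval 1.95-fold to 2.15-fold). NDUFB2 shares 397 bases with LOC100134713, whose log2 ratio was 0.25. In order of RPKM over all rows, NDUFA9 had rank 3491 in the knockout and 1737 in the wild-type library, and NDUFB2 had rank 690 in the knockout and 320 in the wild-type library.

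Complexes II and III had more ratios above 1 than below. SDHA, the flavoprotein of succinate dehydrogenase, had 14613 fragments and 87.9 RPKM in the knockout library, against 13264 fragments and 64.8 RPKM in the wild-type library. Its ratio was 1.29 (1.26 to 1.32), and reads can be shared with its pseudogenes SDHAP1, SDHAP2 and SDHAP3, which had ratios of 0.913, 0.963 and 0.695. SDHB, the iron-sulfur subunit, had 41.1 and 40.9 RPKM in the knockout and wild-type libraries, a ratio of 0.952 (0.909 to 0.998), and its log2 ratio was just above 0 (0.0033 to 0.0090) under total count, upper quartile or RPKM scaling. The membrane anchors SDHC and SDHD, which bind coenzyme Q, had ratios of 1.10 (1.06 to 1.14) and 1.12 (1.07 to 1.17). In complex III, 8 of 9 subunits had a log2 ratio above 0 (7 of 9 with DESeq2 size factors) and the median was 0.11. UQCRFS1, the Rieske iron-sulfur protein (hg19 chromosome 19, 29698167 to 29704136), had 4048 fragments and 47.5 RPKM in the knockout library, against 3430 fragments and 32.7 RPKM in the wild-type library. Its ratio of 1.38 (1.31 to 1.44) was the highest of the complex, followed by the core proteins UQCRC2 at 1.36 (1.31 to 1.40) and UQCRC1 at 1.23 (1.19 to 1.27). CYC1, the haem-bearing cytochrome c1, had 117 RPKM in the knockout and 102 RPKM in the wild-type library, a ratio of 1.09 (1.06 to 1.12). The hinge protein UQCRH, the most abundant structural subunit, had a ratio of 1.002 (0.973 to 1.03), and UQCR10 had the lowest ratio of the complex, 0.914 (0.870 to 0.959). UQCRB had 20.8 RPKM in the knockout and 18.9 RPKM in the wild-type library, the lowest level of the complex, and UQCRQ and UQCR11 had ratios of 1.08 and 1.06. Under 5 ways of scaling the libraries, the medians of complexes II and III stayed above 0 (0.10 to 0.23) and that of complex I below 0 (-0.11 to -0.02).

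In complex IV the nuclear-encoded subunits, which surround a catalytic core made from mitochondrial DNA, lay on both sides of 1. Of 11, 5 had a log2 ratio above 0 and 6 below, and the median of -0.01 was above 0 with total count, upper quartile or deposited RPKM scaling (0.06 to 0.07). COX7C had 4611 fragments and 163 RPKM in the knockout library, against 3980 fragments and 114 RPKM in the wild-type library, a ratio of 1.35 (1.295 to 1.41). It contains the small RNA row MIR3607. COX8A had 4721 fragments and 134 RPKM in the knockout library, against 7529 fragments and 173 RPKM in the wild-type library, a ratio of 0.731 (0.705 to 0.759). These were the highest and lowest ratios of complex IV, and both intervals lie inside 1.5-fold. COX4I1, the regulatory subunit that binds ATP, had 209.7 RPKM in the knockout and 199.8 RPKM in the wild-type library, a ratio of 0.993 (0.969 to 1.02), and its log2 ratio was above 0 (0.06 to 0.07) under those 3 scalings. COX5A, which joins COX4I1 early in assembly, and COX5B, a zinc-binding subunit, differed from each other, with ratios of 0.807 (0.768 to 0.848) and 1.24 (1.19 to 1.29). The COX5B row overlaps the rows MIR4435-1 and MIR4435-2, which had 3 fragments or fewer in each library. NDUFA4, named for complex I but placed in complex IV by later work, had 35.01 RPKM in the knockout and 43.6 RPKM in the wild-type library, a ratio of 0.761 (0.734 to 0.788). COX6A1, COX6B1, COX6C, COX7A2 and COX7B had ratios of 0.774, 1.07, 1.03, 0.924 and 1.18. COX7A2L, which tethers complex III to complex IV in supercomplexes, had 44.7 RPKM in the knockout and 54.5 RPKM in the wild-type library, a ratio of 0.776 (0.744 to 0.811).

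The ubiquitous isoforms made up nearly all transcripts of each isoform pair. COX6A2, the heart and muscle form, and COX7B2 and COX8C, forms known from testis, had 0 fragments in both libraries. At a floor of 3 fragments per library this allows up to 0.0577 CPM (counts scaled to library size) in the knockout and 0.0494 CPM in the wild-type library. COX4I2, the hypoxia-responsive form of COX4I1, had 2 fragments in the knockout and 0 in the wild-type library, under that floor in both. These 4 rows were the members with fewer than 10 reads. COX6B2, another testis form, had 8 fragments in the knockout and 6 in the wild-type library. COX7A1, the muscle form of COX7A2, had 6 fragments in the knockout and 32 in the wild-type library, 0.113 and 0.490 RPKM, a ratio of 0.219 with a wide interval (0.0748 to 0.530). It made up 0.150% of the pair's RPKM in the knockout and 0.631% in the wild-type library. NDUFA4L2, a target of hypoxia-inducible factors that is known for high levels in clear cell renal carcinoma, had 4 fragments in the knockout and 27 in the wild-type library. Its level was 0.0484 RPKM in the knockout and 0.265 RPKM in the wild-type library, a ratio of 0.173 (0.0439 to 0.496), and it shares 33 bases with SHMT2, whose log2 ratio was -0.74. NDUFA4L2 was thus under 1 RPKM in both lines. UQCRHL, a retrocopy of UQCRH, had 124 fragments in the knockout and 175 in the wild-type library, and its reads can come from UQCRH. The read-through NDUFC2-KCTD14, which shares exons with NDUFC2, had 11 fragments in each library.

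The complex I assembly factors among the members had ratios close to 1. NDUFAF1, NDUFAF2 and NDUFAF4, which act on assembly intermediates, had 4.38, 12.3 and 4.90 RPKM in the knockout library and 4.53, 12.1 and 4.21 RPKM in the wild-type library. Their ratios were 0.916, 0.963 and 1.10, and all 3 intervals include 1. NDUFAF3, which overlaps DALRD3 by 560 bases, had a ratio of 0.842 (0.793 to 0.893). None of the 4 was counted at 1.5-fold.

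Position on the chromosome went along with the ratios. The 61 structural subunits lie on 20 chromosomes, and those on chromosomes 7 and 12 all had log2 ratios below 0. On chromosome 12, NDUFA9 had -1.16, NDUFA12 -0.41 and COX6A1 -0.37. On chromosome 7, NDUFB2 had -1.04, NDUFA4 -0.39 and NDUFA5 -0.30. Both counted subunits are among these 6, whose median was -0.40, and the 55 subunits on other chromosomes had a median of 0.06 with 0 higher and 0 lower. Genes in general were lower on the same chromosomes. Of 1729 genes tested on chromosomes 7 and 12, 29.6% were lower and the median was -0.49, against 6.85% and 0.06 for the 15165 genes on other chromosomes. Log2 ratios were below 0 for 76.3% of the genes on chromosomes 7 and 12 and for 45.6% of those on other chromosomes. The 50 expressed genes nearest to NDUFA9 had a median of -0.87, and those nearest to NDUFB2 one of -0.68. Relative to these neighbours the log2 ratios were -0.29 for NDUFA9 and -0.35 for NDUFB2, and neither was counted as lower. The neighbours of NDUFA12, COX6A1, NDUFA4 and NDUFA5 had medians of -0.46, -0.43, -0.15 and -0.65. Relative to them these subunits were at 0.05, 0.06, -0.25 and 0.35. COX7A1 and NDUFA4L2 were counted as lower also relative to their neighbours, at -2.23 and -1.97. The part of chromosomal position in the ratios was not tested.

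**Figure D3:**
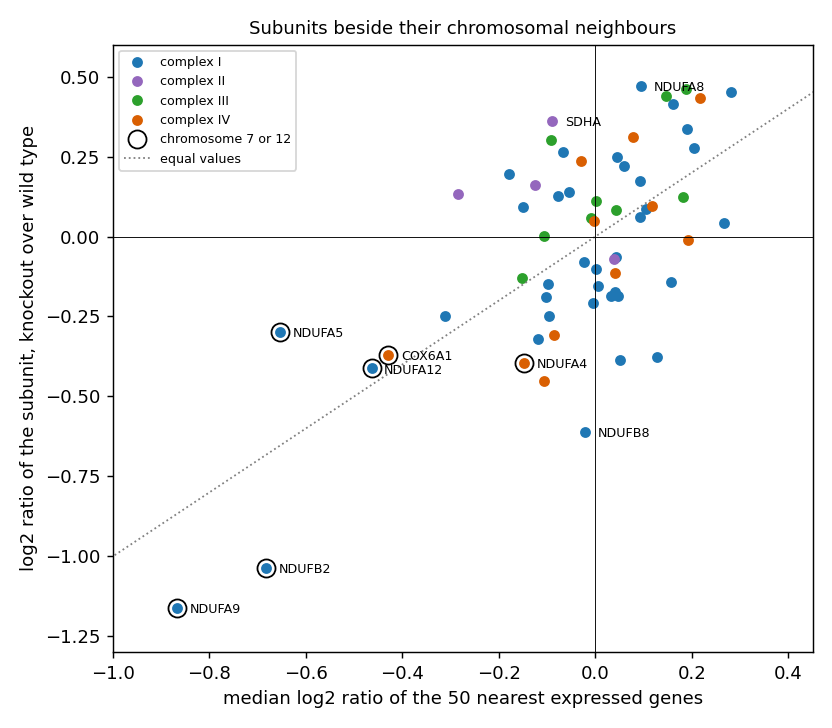
Log2 ratio of each structural subunit (vertical axis, knockout over wild type) against the median log2 ratio of the 50 nearest expressed genes on its chromosome (horizontal axis). The 6 ringed subunits on chromosomes 7 and 12 are all below 0, as are 76.3% of all genes tested there. NDUFA9 and NDUFB2 lie farthest to the lower left beside neighbours at -0.87 and -0.68, and NDUFB8 lies low beside neighbours near 0.

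Across the 61 subunits, the log2 ratio and the neighbour median had a Pearson correlation of 0.67 (Spearman 0.50). Among the 55 subunits outside chromosomes 7 and 12 it was 0.36 for both measures. These are descriptions over genes that share both libraries and, in part, their neighbours. Other subunits departed from their surroundings. NDUFB8 on chromosome 10 had -0.61 beside neighbours at -0.02, NDUFB1 on chromosome 14 had -0.38 beside 0.13, and NDUFA7 on chromosome 19 had -0.39 beside 0.05. SDHA on chromosome 5 had 0.36 beside -0.09, SDHC on chromosome 1 had 0.13 beside -0.29, and UQCRC1 on chromosome 3 had 0.30 beside -0.09. SDHA starts at base 218356 of its chromosome, so its neighbours lie mostly after it. Relative to neighbours, the median of complex II was 0.35 and that of complex III 0.11, whereas complex I had -0.05 and complex IV -0.02. On chromosome 16, the 4 subunits COX4I1, NDUFB10, NDUFAB1 and UQCRC2 had a median of 0.38 where all genes of the chromosome had 0.23. On chromosome 19, which holds 9 subunits, 8 had a log2 ratio above 0 and the median was 0.10, beside 0.18 for the chromosome. The log2 ratio had almost no relation to gene length (Pearson 0.09) or to mean RPKM (0.06) over the 61 subunits.

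Promoters of respiratory chain genes are known for sites of nuclear respiratory factor 1 (NRF1), the ETS factor GABP (also called NRF2), YY1 and oestrogen-related receptors (ERR). RefSeq promoter windows (GRCh38.p14, 250 bases before to 50 after a start) were found for 52 of the 61 subunits. Both strands were searched for GCATGCGC (NRF1), CCGGAAG (ETS), AAGATGGCG (YY1) and AAGGTCA (ERR). The NRF1 letters were in 10 of 52 subunits (19.2%), against 4.89% of 15843 protein-coding genes and 3.05% of all 35116 windows. ETS letters were in 15 (28.8%, against 16.5% and 10.3%), YY1 letters in 8 (15.4%, against 3.21% and 1.75%) and ERR letters in 8 (15.4%, against 4.26% and 3.92%). At least 1 of the 4 was in 27 subunits (51.9%, against 25.7% of protein-coding genes). Subunits with the NRF1 letters had a median log2 ratio of -0.11 and those without one of 0.05, with YY1 letters -0.20 and without 0.05, with ERR letters -0.13 and without 0.07, and with ETS letters 0.08 and without -0.11. Values within a group spread widely, from -1.16 (NDUFA9) to 0.45 (NDUFS4) with YY1 letters and from -0.37 (COX6A1) to 0.47 (NDUFA8) with NRF1 letters. NDUFA9 and COX6A1 are on chromosome 12. Whether the ratios go with the letters was not tested. A match is a description of letters and not a measured binding site.

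Stretches of 6 promoters, from 225 bases before to 25 after the start and 5′ to 3′ on the gene's strand, are shown for the 2 structural subunits counted as lower (NDUFA9, NDUFB2), the subunit with the highest ratio (NDUFA8), a subunit with all 4 motifs (SDHB) and 2 complex IV subunits with NRF1 and ETS letters and ratios on opposite sides of 1 (COX5B at 1.24, COX6A1 at 0.774). Capitals mark the motif letters. They are at GRCh38.p14 chr12:4648889-4649138 (+), chr7:140696483-140696732 (+), chr9:122159755-122160004 (-), chr1:17054008-17054257 (-), chr2:97645837-97646086 (+) and chr12:120437888-120438137 (+), in the order of the lines.
NDUFA9: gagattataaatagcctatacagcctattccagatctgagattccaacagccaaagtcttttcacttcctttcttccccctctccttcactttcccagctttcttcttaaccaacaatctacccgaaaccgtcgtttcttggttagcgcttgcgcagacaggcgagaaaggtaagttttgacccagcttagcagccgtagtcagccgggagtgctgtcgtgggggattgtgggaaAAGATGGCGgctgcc
NDUFB2: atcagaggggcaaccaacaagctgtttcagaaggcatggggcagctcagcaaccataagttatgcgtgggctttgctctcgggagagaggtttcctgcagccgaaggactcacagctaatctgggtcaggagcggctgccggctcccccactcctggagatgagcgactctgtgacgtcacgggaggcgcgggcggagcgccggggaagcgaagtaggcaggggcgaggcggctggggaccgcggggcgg
NDUFA8: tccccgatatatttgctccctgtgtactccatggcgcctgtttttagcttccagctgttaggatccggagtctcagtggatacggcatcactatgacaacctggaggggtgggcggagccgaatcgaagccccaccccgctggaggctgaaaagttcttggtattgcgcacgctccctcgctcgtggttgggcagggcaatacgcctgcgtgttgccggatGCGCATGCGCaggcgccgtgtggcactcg
SDHB: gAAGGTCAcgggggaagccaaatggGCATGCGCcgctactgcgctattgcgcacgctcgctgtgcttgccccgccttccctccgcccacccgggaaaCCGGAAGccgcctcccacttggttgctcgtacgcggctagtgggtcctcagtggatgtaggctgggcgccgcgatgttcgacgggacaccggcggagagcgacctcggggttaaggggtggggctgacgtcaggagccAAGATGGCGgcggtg
COX5B: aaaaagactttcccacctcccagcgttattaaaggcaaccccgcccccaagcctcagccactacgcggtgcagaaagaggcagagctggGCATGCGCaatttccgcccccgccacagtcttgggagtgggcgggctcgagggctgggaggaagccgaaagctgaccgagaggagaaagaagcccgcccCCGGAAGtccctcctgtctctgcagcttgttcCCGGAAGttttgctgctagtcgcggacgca
COX6A1: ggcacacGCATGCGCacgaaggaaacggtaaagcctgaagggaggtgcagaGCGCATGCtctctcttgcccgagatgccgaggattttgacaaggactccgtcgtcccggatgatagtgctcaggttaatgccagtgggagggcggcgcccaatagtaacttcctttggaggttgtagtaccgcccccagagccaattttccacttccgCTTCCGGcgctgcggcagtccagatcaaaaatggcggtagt
NDUFA9 and SDHB hold the YY1 letters at the same place, from base 11 after the start, and NDUFB2 holds none of the 4. In NDUFA8 the NRF1 letters lie across the start on both strands and overlap each other, which makes the capital run 10 bases long. SDHB has the ERR letters 224, the NRF1 letters 200 and the ETS letters 128 bases before the start. COX5B has NRF1 letters 136 bases before the start and ETS letters 37 and 5 bases before it, and COX6A1 has NRF1 letters at 218 and 174 and ETS letters at 16 bases before it. NDUFA9 and SDHB, which share the YY1 letters, had log2 ratios of -1.16 and -0.07.

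Other genes of oxidative phosphorylation were described from 11 lists, which partly overlap. The shares of each list are read beside the 10.4% of all genes tested that were higher and the 9.17% that were lower, and the medians beside 0.02. The median of the 6401 genes at least as abundant as the lowest subunit was -0.08. ATP synthase (complex V) had 0 of 21 genes higher and 2 lower (9.52%, about the share of all genes), with a median log2 ratio of -0.15. ATP5J2, a membrane subunit encoded on chromosome 7, had 110 RPKM in the knockout and 197 RPKM in the wild-type library, a ratio of 0.527 (0.507 to 0.547), and ATP5F1, a stalk subunit, had a ratio of 0.643 (0.623 to 0.664). Assembly factors of complex IV had 0 of 23 higher and 3 lower (13.0%, against 9.17% of all genes), with a median of 0.03. COX17, the copper chaperone of complex IV, had 22.5 RPKM in the knockout and 46.7 RPKM in the wild-type library, a ratio of 0.456 (0.416 to 0.499). COX20, which assists the mitochondrially encoded subunit that receives copper, had a ratio of 0.399 (0.324 to 0.489), and COX19, on chromosome 7, one of 0.569. Assembly factors of complexes II and III had 0 of 10 higher and 1 lower, near the share of all genes, with a median of -0.08. The lower gene was ACN9 on chromosome 7, at 0.592. The 12 other assembly factors of complex I had 0 higher and 0 lower, at a median of -0.08, and the most abundant, TIMMDC1 and C17orf89, had ratios of 0.947 and 0.997.

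Among electron carriers and coenzyme Q synthesis genes, the counts were 2 of 17 higher (11.8%) and 1 lower (5.88%), near the 10.4% and 9.17% of all genes, and the median was 0.00. ADCK3, an atypical kinase needed for coenzyme Q synthesis, had 7.004 RPKM in the knockout and 2.94 RPKM in the wild-type library, a ratio of 2.26 (2.06 to 2.47). COQ4, a scaffold of the same pathway, had a ratio of 1.77 (1.67 to 1.89), and PDSS1, which makes the isoprenoid tail, 0.547 (0.485 to 0.615). Regulators of mitochondrial biogenesis had 2 of 20 higher and 2 lower, near the shares of all genes, and a median of 0.01. PPARGC1A and PPARGC1B, coactivators of NRF1 and ERR target genes, had ratios of 2.86 (2.06 to 4.02) and 2.64 (2.28 to 3.07), but low levels. PPARGC1A had 0.296 RPKM in the knockout and 0.0978 RPKM in the wild-type library, and PPARGC1B had 0.782 and 0.280 RPKM. SSBP1, which binds single-stranded mitochondrial DNA, and MTERF, a mitochondrial transcription terminator, both on chromosome 7, had ratios of 0.546 and 0.514. The list of the oxygen-dependent mitochondrial switch, which holds NDUFA4L2, had 0 of 11 higher and 4 lower (36.4%, against 9.17% of all genes) and a median of -0.35. Besides NDUFA4L2 these were EPAS1, the HIF-2 alpha subunit, at 0.553, the kinase PDK1, which restrains pyruvate dehydrogenase, at 0.530, and the matrix protease LONP1 at 0.554. Of the 11, 9 had a log2 ratio below 0 and 2 above 0, MXI1 at a ratio of 1.40 (1.29 to 1.52) and BNIP3L at 1.19.

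The tricarboxylic acid cycle had 0 of 18 genes higher and 1 lower (5.56%, against 9.17% of all genes) with a median of 0.00, the lower gene being citrate synthase (CS, chromosome 12) at 0.646 (0.629 to 0.663). Iron-sulfur cluster assembly had 1 of 15 higher and 1 lower (6.67% each, against 10.4% and 9.17% of all genes) and a median of 0.12. The ferredoxin reductase FDXR had a ratio of 1.73 and BOLA3, a late-acting assembly factor, 0.589. The large subunit of the mitochondrial ribosome had 0 of 47 genes higher and 1 lower (2.13%), MRPL51 at 0.543, with a median of -0.08. The small subunit had 0 of 29 higher and 1 lower (3.45%), MRPS35 at 0.588, with a median of 0.03. MRPL51 and MRPS35 are both on chromosome 12. Over the 220 tested genes of these lists outside the members, 8 of 24 on chromosomes 7 and 12 were lower (33.3%) and 0 higher, with a median of -0.45. Of all genes there, 29.6% were lower and 5.26% higher. On other chromosomes 8 of 196 list genes were lower (4.08%) and 5 higher (2.55%), with a median of 0.02, where 6.85% of all genes were lower and 10.98% higher.

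**Figure D4:**
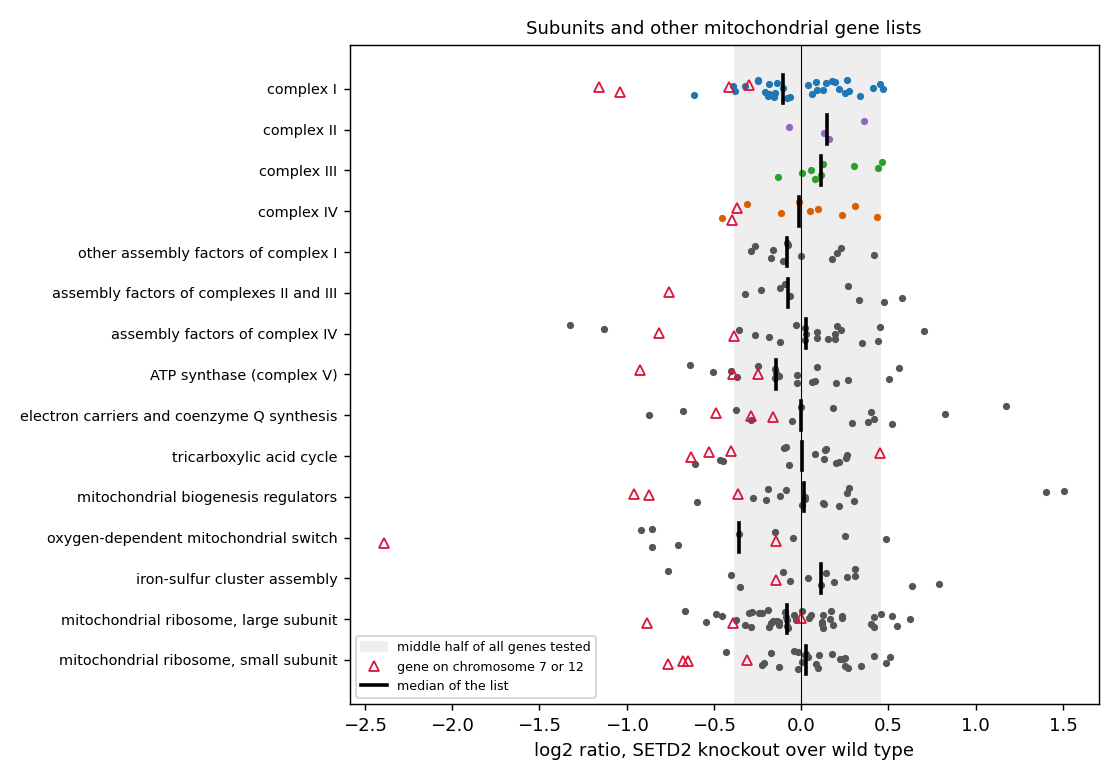
Log2 ratio of SETD2 knockout over wild type for the structural subunits of complexes I to IV (coloured) and the genes of 11 further mitochondrial lists (grey), with each median as a black bar and the range between the quartiles of all genes tested (-0.38 to 0.45) shaded. Open triangles are genes on chromosomes 7 and 12, and the one farthest to the left is NDUFA4L2, while the 2 points farthest to the right are PPARGC1A and PPARGC1B.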

How the data were processed

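Each of the 2 libraries came as 1 table. Per the file headers, the authors deposited for each gene a count of reads and its RPKM. The tools TopHat2 2.0.6, Bowtie and HTSeq and the build hg19 are named in the submitters' processing notes. The sources used here give no settings, annotation release or strandedness, so reads of overlapping genes cannot be told apart. Every deposited count was even, so counts were divided by 2 and called fragments. The deposited RPKM is per kilobase of the length column, of which 35.1% are multiples of 3. The 23 Y rows of genes also listed on X were dropped.

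Libraries were scaled by TMM in edgeR 4.0.16 (R 4.3.3) over the 16894 genes with at least 10 reads in both libraries together. Ratios have exact conditional (Clopper-Pearson) 95% intervals computed with scipy 1.17.1, and log2 ratios have 0.5 fragments added per library. The interval rule was tried on simulated counts with 200 changed genes. The simulation held counting error only, so it does not bear on the spread between cultures. Neighbours were the 25 genes with at least 100 reads on each side, or fewer where the chromosome ended first. Biotypes and promoter sequences are RefSeq's (GRCh38.p14), matched by symbol or synonym, and no coordinates were moved between builds.

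The members and lists were chosen with earlier results of these data known. Named genes were the counted members, core subunits, complex II, isoform pairs, assembly factors, members under 10 reads, and per complex the 2 highest and 2 lowest levels and the extreme ratios. To these came up to 2 higher and 2 lower genes of each list, or its 2 most abundant, and SETD2. The remaining subunits, PDK1, LONP1, COX19, MXI1 and BNIP3L were named after their values were seen. Alternatives were 4 other scalings (DESeq2 1.42.0 size factors among them), undivided counts, other minimums, folds, interval levels and added fragments, members without copies, and ratios relative to neighbours. The values of 1 structural subunit are not reported here, though the counts and medians include it.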

Additional observations from a re-analysis of the deposited data

How the results depend on the processing

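With 1 library per line, no result has a replicate check, and counting intervals are narrower than the unmeasured spread between cultures. No paired analysis was possible because each line has 1 library and the labels give no replicate numbers. The count of lower members at 1.5-fold, 4 as reported, was 2 relative to the neighbouring expressed genes. It was 11 with intervals beyond 1.2-fold and 2 with intervals beyond 2-fold. Without members on chromosomes 7 and 12, an alternative chosen after seeing the data, it was 1. With the point ratio alone it was 5, NDUFB8 being added. The count of higher members, 0 as reported, was 7 with intervals beyond 1.2-fold and 1 with the point ratio alone (COX6B2). The median log2 ratio of the structural subunits, 0.04, was 0.12 under total count, 0.12 under upper quartile and 0.12 under deposited RPKM scaling, and its mean was -0.027. Total count, upper quartile and RPKM scaling moved the median of all genes by 0.08, 0.07 and 0.08. The summed RPKM ratio of 1.04 was 0.987 with TMM-scaled fragments per kilobase, which replaces the authors' library totals by TMM-scaled ones, and 1.04 without the most abundant subunit of each complex. No called member changed its direction under another scaling, undivided counts, 2 added fragments or the neighbour comparison. For members at 10 fragments or fewer in a library (COX7A1, NDUFA4L2, COX6B2), depth limits the ratio.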
